A study of Bos taurus with 12 samples.

Results

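Transcripts of fibrillar collagens, of collagen VI and of the proteins that assemble and cross-link them were described pool by pool in endometrium of Simmental heifers. The 9 genes COL1A1, COL1A2, COL3A1, COL5A1, COL5A2, COL6A1, COL6A3, LOX and SPARC were looked up by symbol in the annotation of the array. Of these, 7 were represented, among 9155 genes with a symbol of their own, by 12 of the 24016 probe sets tested, and COL5A1 and COL6A3 had no probe set under these symbols and were not analysed here. RNA of each pool was measured on 1 Affymetrix array, and the 12 pools fell into 4 groups of 3. These were non-receptive endometrium on day 3 of the estrous cycle, receptive endometrium on day 3, non-receptive endometrium on day 7 and receptive endometrium on day 7. The labels give no treatment, and state breed, sex, day and receptivity for each pool. Receptivity was assigned from pregnancy success after in vivo-produced embryos had been transferred. The labels give neither the number of animals in a pool nor a statement that pools of a group came from separate animals, so that the p-values reflect variation among these pools alone, part of which may be technical.

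Fibrillar collagens are secreted as procollagen, trimmed outside the cell and packed into fibrils that give connective tissue its strength. COL1A1 and COL1A2 encode the chains of type I collagen, COL3A1 encodes type III collagen, and COL5A2 encodes a chain of type V collagen, which is built into type I fibrils and limits their width. COL6A1 encodes a chain of type VI collagen, which forms beaded filaments close to cells. LOX oxidises lysine residues of collagen and elastin so that chains become cross-linked, and SPARC is a secreted collagen-binding protein involved in fibril assembly. In the endometrium, fibrillar collagens are made mainly by fibroblasts of the stroma.

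The signals are deposited on a log2 scale, so that a difference of 1 is a doubling of signal. Array medians ran from 6.64 to 6.76, and each array listed 257 to 450 probe sets at 0. The lowest correlation between arrays of a group was 0.952, and no arrays held identical values. The number of arrays limits the precision, and levels of different probe sets were not compared with each other. The summed level of the epithelial markers lay between 14.5 and 14.98 in all pools. VIM, a fibroblast and mesenchymal filament gene, lay between 9.19 in non-receptive day 3 pool 3 and 11.12 in pool 2 of that group.

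COL3A1 was measured by 2 probe sets. In non-receptive endometrium on day 3 the log2 signal of its brighter probe set was 12.12, 13.08 and 10.26 in pools 1, 2 and 3, and in receptive endometrium on day 3 it was 12.23, 11.88 and 12.39. On day 7 it was 11.86, 10.27 and 10.98 in the non-receptive pools and 9.21, 9.78 and 9.49 in the receptive pools. Of the day 3 pools, 5 stood at or above 11.88, just over the highest day 7 pool, whereas non-receptive pool 3 stood among the day 7 pools. The mean was 11.99 ± 0.94 (SD, n = 6) on day 3 and 10.27 ± 1.0 (SD, n = 6) on day 7. The second probe set gave 11.63, 12.42 and 9.49 in the non-receptive and 11.50, 11.26 and 11.93 in the receptive pools of day 3. On day 7 it gave 10.75, 8.88 and 10.19 in the non-receptive and 8.31, 9.71 and 8.53 in the receptive pools. Both probe sets ranked non-receptive pool 3 lowest of the day 3 pools, and their signals correlated at r = 0.972 over the 12 pools.

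Of the type I collagen genes, COL1A2 separated the days more than COL1A1 did, and the genes were not tested against each other. Their brighter probe sets correlated at r = 0.839 over the 12 pools. COL1A2, on its brighter probe set, stood at 10.22, 11.35 and 8.37 in the non-receptive and at 10.23, 9.93 and 10.07 in the receptive pools of day 3. On day 7 it stood at 9.32, 8.33 and 8.89 in the non-receptive and at 7.48, 9.22 and 7.93 in the receptive pools. As for COL3A1, non-receptive day 3 pool 3 was the single day 3 pool within the range of day 7. The second COL1A2 probe set followed the first at r = 0.988. COL1A1, on its brighter probe set, stood at 7.10, 8.31 and 6.31 in the non-receptive and at 7.14, 7.09 and 6.82 in the receptive pools of day 3. Its day 7 values were 6.78, 6.77 and 6.80 in the non-receptive and 6.10, 7.07 and 6.83 in the receptive pools. The days overlapped for COL1A1 also among the remaining pools, and the 3 non-receptive day 7 pools were nearly equal. The other COL1A1 probe set ranged from 1.54 to 3.91 and its mean lay at percentile 8.29 of all probe sets tested, and it correlated with the first at r = 0.251 only.

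COL5A2 had 1 probe set. It was at 7.51, 7.88 and 5.34 in the non-receptive and at 7.32, 7.01 and 7.44 in the receptive pools of day 3. In the day 7 pools it was at 6.49, 5.70 and 6.0 in the non-receptive and at 5.43, 6.18 and 4.69 in the receptive pools. The day 3 pools other than non-receptive pool 3 all lay above the highest day 7 pool. COL6A1, on the brightest of its 3 probe sets, was at 9.73, 11.14 and 8.86 in the non-receptive and at 10.18, 9.90 and 9.91 in the receptive pools of day 3. On day 7 it was at 9.14, 7.74 and 8.63 in the non-receptive and at 8.19, 9.01 and 7.26 in the receptive pools. The same day 3 pool was again the lowest of its day. The 2 other COL6A1 probe sets ranged only from 3.99 to 4.93 and from 3.96 to 5.01, so the probe sets of COL6A1 do not report the same pattern.

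SPARC, with 1 probe set, had values of 9.61, 10.54 and 7.07 in the non-receptive and 9.53, 9.73 and 9.57 in the receptive pools of day 3. Its values on day 7 were 8.32, 6.62 and 7.81 in the non-receptive and 6.63, 8.29 and 6.7 in the receptive pools. SPARC spread over 3.47 log2 units among the non-receptive day 3 pools, and its receptive day 3 pools had an SD of 0.11. LOX, also with 1 probe set, had another pattern. It was at 3.12, 4.10 and 2.45 in the non-receptive pools of day 3, and in the receptive pools of that day it was listed at 0 in pools 1 and 2 and at 3.28 in pool 3. On day 7 it was at 2.95, 3.45 and 3.53 in the non-receptive and at 3.12, 4.56 and 4.02 in the receptive pools. The mean LOX signal lay at percentile 6.82 of all probe sets tested, close to the low end of the array, where a value of 0 gives no level.

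**Figure D1:**
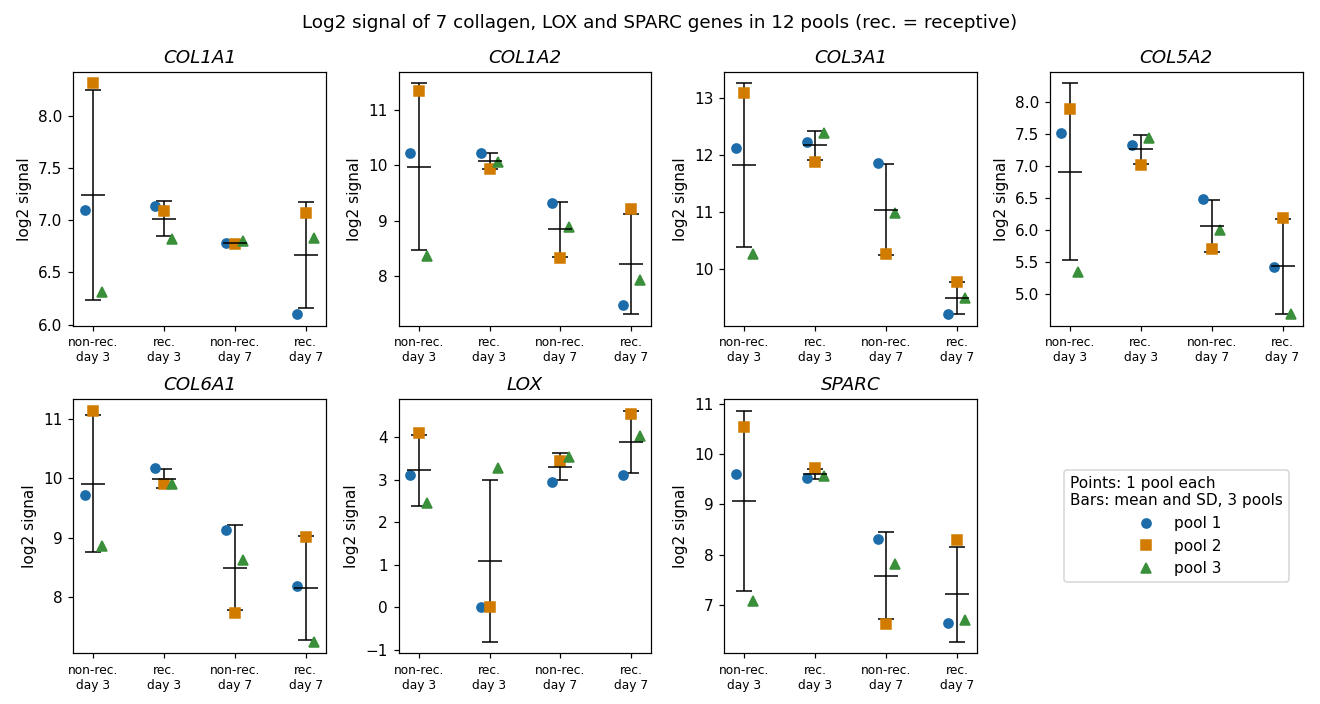
Log2 signal of the brightest probe set of COL1A1, COL1A2, COL3A1, COL5A2, COL6A1, LOX and SPARC (vertical axes, each panel with its own range) in the 4 groups. Each point is 1 pool, and bars give the mean and SD of 3 pools (rec., receptive). Non-receptive day 3 pool 3 is the lowest day 3 pool for each collagen gene and for SPARC (for example 10.26 for COL3A1), and LOX is listed at 0 in 2 receptive day 3 pools.

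COL3A1 and COL6A1 transcripts were less abundant on day 7 than on day 3 when the change was averaged over receptivity. COL3A1 fell by 1.73 on the log2 scale (SE 0.44, adjusted p = 0.0297, limma), which is 3.31-fold, and its second probe set fell by 1.98 (SE 0.52, adjusted p = 0.0322). COL6A1 fell by 1.63 (SE 0.42, adjusted p = 0.0321) on its bright probe set, while its dim probe sets gave 0.18 and -0.30 and did not pass. In all, 3 of the 12 probe sets, from 2 of the 7 genes, were lower and 0 were higher. Over all probe sets tested, 14.2% passed, 9.44% lower and 4.76% higher. Unadjusted, 8 of the 12 had a p under 0.05, as had 30.8% of all probe sets tested. These 8 include LOX, whose change was a rise.

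The remaining genes did not pass. SPARC gave a change of -1.95 (SE 0.58, adjusted p = 0.0502). COL1A2 gave -1.50 (SE 0.48, adjusted p = 0.0639) and -1.52 (adjusted p = 0.0935) on its probe sets, and COL5A2 gave -1.34 (SE 0.43, adjusted p = 0.0640). COL1A1 gave -0.40 (SE 0.30, adjusted p = 0.404), with a 95% confidence interval from -1.08 to 0.27. Its dim probe set gave -0.23 (adjusted p = 0.719). LOX gave 1.45 (SE 0.58, adjusted p = 0.123), and this became 0.36 (adjusted p = 0.392) when all values under 3 were raised to 3. The median change of the 12 probe sets was -1.42, beside -0.05 over all probe sets tested. In bulk RNA, fewer cells of a type and less RNA per cell cannot be told apart.

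These calls depended on single pools, though the changes kept their direction. With each pool left out in turn, the COL3A1 change ran from -2.12 to -1.41 and the COL6A1 change from -1.89 to -1.32. Each such fit also had fewer arrays. When each pool was left out in turn, none of the 12 was lower without any 1 of 7 of the pools, where 7.75% to 15.1% of all probe sets passed in either direction. On day 3 these were non-receptive pool 1 and receptive pools 1 and 3, and on day 7 they were pools 2 and 3 of the non-receptive and 1 and 3 of the receptive endometrium. Leaving out pool 2 of either day 3 group left 1 probe set lower (9.48% of all passing without the non-receptive and 11.6% without the receptive pool), and 5 were lower without the receptive pool 2 of day 7 (11.8% of all passing). Without receptive day 3 pool 3, which leaves that group with the pools where LOX is listed at 0, LOX was higher on day 7 (adjusted p = 0.0144), also within receptive endometrium (adjusted p = 0.0496). Without non-receptive day 3 pool 3, 7 of the 12 probe sets were lower, where 8.31% of all probe sets were lower. COL3A1 then fell by 2.12 (adjusted p = 0.00494), COL5A2 fell by 1.73 (adjusted p = 0.00632) and SPARC fell by 2.45 (adjusted p = 0.00802). COL1A2 fell by 1.90 (adjusted p = 0.0117), and COL6A1 fell by 1.89 (adjusted p = 0.0177). COL1A1 gave -0.64 (adjusted p = 0.117) and LOX gave 1.25 (adjusted p = 0.211) without that pool. With all pools the 2 days overlapped for each of the 12 probe sets, where 5.16% of all probe sets were lower without overlap. Without it, 7 of the 12 did not overlap (6.33% of all probe sets). That pool was singled out because it was the lowest of day 3 for these genes, so the share over all probe sets is no fair comparison for the values without it. The choice by itself favours larger falls and smaller p-values for these genes, so those adjusted p-values cannot be taken at face value.

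**Figure D2:**
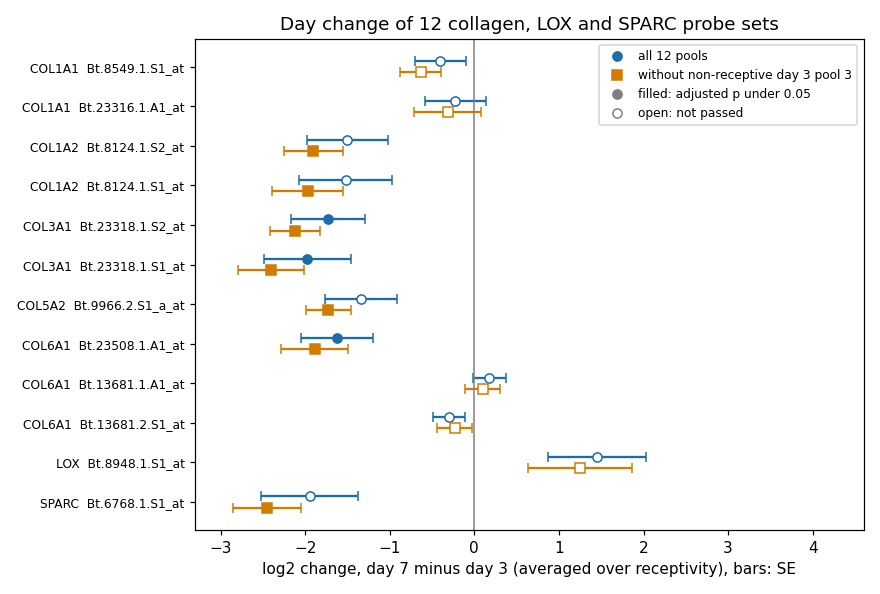
Log2 change from day 3 to day 7, averaged over receptivity (horizontal axis), with its SE, for each of the 12 probe sets (vertical axis, named by gene and probe set identifier). Circles use all 12 pools and squares leave out non-receptive day 3 pool 3, and filled symbols passed an adjusted p of 0.05. With all pools COL3A1 (-1.73 and -1.98) and the bright COL6A1 probe set (-1.63) passed, and without that pool 7 probe sets passed. That pool was left out because it was the lowest of day 3 for these genes, a choice that itself favours passing.

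The genes varied together from pool to pool. The log2 signal of the brightest probe set of COL1A1, COL1A2, COL3A1, COL5A2, COL6A1 and SPARC was set against the mean of that gene over the 12 pools, and these deviations were averaged over the 6 genes. The 3 receptive day 3 pools lay close together, at 0.90, 0.71 and 0.82. The non-receptive day 3 pools lay far apart, at 0.84 in pool 1, 1.84 in pool 2 and -0.84 in pool 3. Pool 2 was above the mean of each of the 6 genes by at least 1.38, and pool 3 was below it for all 6. On day 7 the non-receptive pools were at 0.11, -0.97 and -0.36, and the receptive pools at -1.37, -0.28 and -1.39. Non-receptive day 3 pool 3 thus stood within the range of the day 7 pools.

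Over the 12 pools, Pearson's r between these 6 genes ranged from 0.683 to 0.974 in the 15 pairs, with a median of 0.923. After the mean of each group had been taken off, the range was 0.688 to 0.971 with a median of 0.879, so the genes also moved together among pools of a group. These correlations are descriptive, since the genes share arrays and RNA. The lowest values involved COL1A1, which had r = 0.683 with COL3A1, and the highest was between COL1A2 and SPARC. LOX had r = -0.336 against COL3A1 over the 12 pools and r = 0.403 after the group means had been taken off. Within groups its r was positive with each of the 6 genes, from 0.244 with COL6A1 to 0.416 with COL1A2, and among the non-receptive day 3 pools it was also highest in pool 2 and lowest in pool 3.

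**Figure D3:**
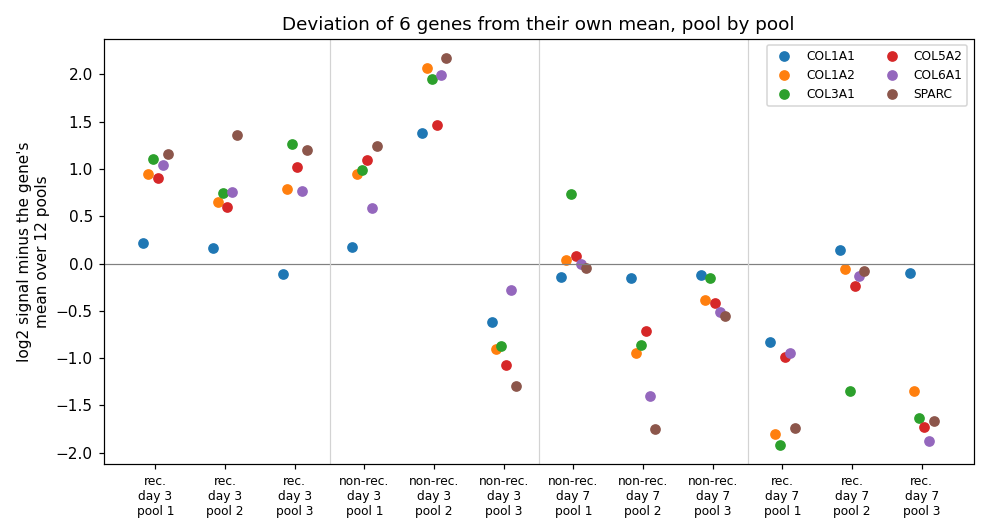
Log2 signal of 6 genes minus the mean of each gene over all 12 pools (vertical axis), by pool (horizontal axis; rec., receptive). Each colour is 1 gene and vertical lines part the groups. The receptive day 3 pools lie close together (means 0.71 to 0.90), whereas the non-receptive day 3 pools reach from -0.84 to 1.84.

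Within non-receptive endometrium no probe set of the 12 passed for the day, and 2.48% of all probe sets did (1.66% lower). The bright COL6A1 probe set gave -1.41 (adjusted p = 0.223), SPARC -1.49, COL1A2 -1.13, COL5A2 -0.85, COL3A1 -0.78, COL1A1 -0.46 and LOX 0.09. COL6A1 was the single probe set with an unadjusted p under 0.05, as had 20.5% of all probe sets tested. The non-receptive groups of the 2 days overlapped for all 12 probe sets, where 15.6% of all probe sets were lower without overlap. Without non-receptive day 3 pool 3, still no probe set of the 12 passed, where 1.1% of all were lower.

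Within receptive endometrium no probe set passed either, where 1.96% of all probe sets passed (1.37% lower). COL3A1 gave the smallest adjusted p, with a change of -2.67 (SE 0.62, adjusted p = 0.0575), and its second probe set gave -2.71 (adjusted p = 0.0813). SPARC gave -2.40, COL1A2 -1.87 and -2.00, COL6A1 -1.84, COL5A2 -1.82, COL1A1 -0.35 and LOX 2.81 (adjusted p = 0.0995). The LOX value rests on the 2 day 3 pools listed at 0, and became 0.81 (adjusted p = 0.253) with all values under 3 raised to 3. Unadjusted, 8 of the 12 had a p under 0.05, LOX with its rise among them, as had 20.4% of all probe sets tested. All receptive day 3 pools lay above all receptive day 7 pools for 7 probe sets, those of COL1A2, COL3A1, COL5A2 and SPARC and the bright one of COL6A1. Of all probe sets, 16.5% were lower without overlap. A fit that left out non-receptive day 3 pool 3, which enters here through the common estimate of the spread, called 3 probe sets lower, both of COL3A1 and that of COL5A2, where 1.25% of all were lower. As that pool was singled out for its low values of these genes, this share is no fair comparison, and the choice itself favours such calls. Leaving out non-receptive day 3 pool 2 called 1 lower, where 1.11% of all passed.

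The difference between these day changes was tested directly. No probe set of the 12, and 0% of all probe sets, passed for the receptive minus the non-receptive day change. At an unadjusted p under 0.05 there was 1 of the 12, LOX with 2.72 (adjusted p = 0.999), and 3.39% of all. This LOX value rests on the same 2 pools listed at 0. COL3A1 gave -1.89 with a 95% confidence interval from -3.86 to 0.08. The larger day changes in receptive endometrium are therefore not shown to differ from those in non-receptive endometrium.

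Whether the genes differed with receptivity was asked at each day. On day 3 no probe set of the 12 passed, where 0.0125% of all probe sets did. The receptive minus non-receptive difference was 0.35 for COL3A1 (95% confidence interval -1.05 to 1.74), 0.10 for COL1A2 (-1.41 to 1.61) and 0.35 for COL5A2 (-0.998 to 1.69). It was -0.22 for COL1A1 (-1.17 to 0.73), 0.09 for COL6A1 (-1.25 to 1.42) and 0.54 for SPARC (-1.28 to 2.36). These intervals leave room for differences of over 1 log2 unit for each of the 6 genes. LOX gave -2.13 (SE 0.82, adjusted p = 0.936), which rests on the 2 receptive pools listed at 0, and was the only one of the 12 with an unadjusted p under 0.05, where 5.26% of all probe sets had one.

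On day 7 no probe set of the 12, and 0% of all probe sets, passed for receptivity. COL3A1 gave a difference of -1.54 (SE 0.62, 95% confidence interval -2.94 to -0.15, adjusted p = 0.821) on its brighter probe set. There the receptive pools, from 9.21 to 9.78, lay below the non-receptive pools, from 10.27 to 11.86, where 5.23% of all probe sets were lower in receptive endometrium without overlap. The second COL3A1 probe set gave -1.09 with an interval from -2.72 to 0.54, and its groups overlapped. The p of COL3A1 was the only one under 0.05 unadjusted among the 12, where 5.81% of all probe sets had one. Averaged over days, no probe set of the 12 passed for receptivity, where 0.00416% of all did, and none had an unadjusted p under 0.05. COL3A1 then gave -0.60.

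The gap between the 3' and 5' control probe sets of actin, a measure of RNA integrity, was larger in every receptive pool than in the non-receptive pools of the same day. It averaged 0.63 in the non-receptive day 3 group and 1.99 in the receptive one, and 0.37 and 1.01 on day 7. Its part in the receptivity and day differences was not tested. The gap of GAPDH did not separate the groups, at 0.66 to 0.82 in non-receptive and 0.53 to 1.04 in receptive pools on day 3, and at 0.62 to 0.72 and 0.37 to 0.96 on day 7. Non-receptive day 3 pool 3 had the largest gap of its group for actin, at 0.93 beside 0.49 and 0.48, and for GAPDH, at 0.82 beside 0.66 and 0.72. The part of these gaps in the low values of that pool was not tested.

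Of the enzymes that cross-link collagen, 3 of the 5 listed beside LOX were measured. LOXL1, a LOX relative needed for elastic fibres, fell by 1.23 (SE 0.27, adjusted p = 0.0168). Its signals on day 3 were 7.59, 7.85 and 6.44 in the non-receptive and 7.82, 7.18 and 7.84 in the receptive pools. On day 7 they were 6.49, 5.99 and 6.57 in the non-receptive and 5.76, 6.64 and 5.89 in the receptive pools. LOXL1 thus shared the low value of non-receptive day 3 pool 3. TGM2, a transglutaminase that cross-links matrix proteins by another reaction, rose by 0.90 (SE 0.26, adjusted p = 0.0491), and LOXL4 gave 0.52 (adjusted p = 0.0719). The cross-linking genes therefore did not move in 1 direction.

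Genes of collagen folding and processing were measured for 19 of 26 listed, and 5 fell while 0 rose. Over all probe sets tested, 9.44% were lower and 4.76% higher, and these shares belong beside the counts of the other lists too. PLOD2, which hydroxylates lysines of collagen before cross-linking, fell by 0.82 (SE 0.16, adjusted p = 0.0103), and its second probe set also passed. Its 6 day 3 pools lay from 7.10 to 7.71 and its 6 day 7 pools from 6.06 to 6.99, so that they did not overlap. At 7.56, PLOD2 was not low in non-receptive day 3 pool 3. COLGALT2, a collagen galactosyltransferase, fell by 0.98 (adjusted p = 0.0141). PCOLCE, which enhances removal of the procollagen C-terminal propeptide, fell by 1.96 (SE 0.46, adjusted p = 0.0226) and was at 6.17 in non-receptive day 3 pool 3, beside 7.98 to 9.24 in the other day 3 pools. P4HA3, a prolyl hydroxylase subunit, fell by 1.64 (adjusted p = 0.0318), and the related P4HA2 by 0.60 (adjusted p = 0.0456). P4HB and the collagen chaperone SERPINH1, named here after their values were seen, gave small values, 0.04 (adjusted p = 0.882) and -0.28 (adjusted p = 0.307). The median of the list was -0.15.

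Proteins that organise fibrils were measured for all 15 genes listed, and 4 fell while 0 rose, with a median of -0.41. TNXB, a tenascin that binds collagen fibrils, fell by 2.57 (SE 0.38, adjusted p = 0.00433). SPARCL1, a relative of SPARC, fell by 3.51 (SE 0.71, adjusted p = 0.0123), and its day 3 values were 10.89, 11.53 and 7.67 in the non-receptive and 10.23, 10.57 and 10.43 in the receptive pools. THBS2, a thrombospondin that affects fibril form, fell by 1.31 (adjusted p = 0.0328), and OMD, a small leucine-rich proteoglycan, by 0.28 (adjusted p = 0.0343). Of the other collagen genes, 10 of 17 were measured. COL21A1, a fibril-associated collagen, rose by 2.78 (SE 0.36, adjusted p = 0.00266), from 5.82 to 6.54 in the day 3 pools to 7.81 to 10.12 in the day 7 pools. COL5A3, another chain of type V collagen, fell by 3.07 (adjusted p = 0.0275) and was listed at 0 in 2 day 7 pools, so its size has no firm scale. Collagen genes thus moved in both directions.

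Of the collagen receptors, 4 of 8 were measured and 1 fell, ITGA10, an integrin subunit, by 0.49 (adjusted p = 0.0215), although its second probe set gave 0.12 (adjusted p = 0.732). Of the genes for collagen breakdown, 10 of 11 were measured, and by the brightest probe set of each 2 rose and 0 fell. The change was negative for 4 of the 10. The list also holds TIMP genes, which encode inhibitors of matrix metalloproteinases. Over all 16 probe sets of these genes 4 were higher and 1 was lower. Among the higher ones was the dimmer probe set of TIMP1, at 0.575 (adjusted p = 0.0168, limma), whose brightest gave 0.38 (adjusted p = 0.0817). The lower one was a dimmer probe set of MMP14, at -0.87 (adjusted p = 0.00613, limma), whose brightest gave -0.63 (adjusted p = 0.104). MMP9, a gelatinase, rose (adjusted p = 0.00426) and was at 0 to 2.90 in the day 3 pools and at 3.35 to 7.0 in the day 7 pools, and 3 of its values were listed at 0. MMP13, a collagenase that cleaves fibrils, rose by 3.87 (SE 0.75, adjusted p = 0.0109), from 2.24 to 4.23 on day 3 to 4.56 to 9.60 on day 7. Of the genes of TGF-beta and CTGF signalling to matrix, 9 of 11 were measured and 0 passed in either direction with limma. At an unadjusted p under 0.05 there was 1, TGFBR2, a TGF-beta receptor, at -0.57 (adjusted p = 0.131).

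**Figure D4:**
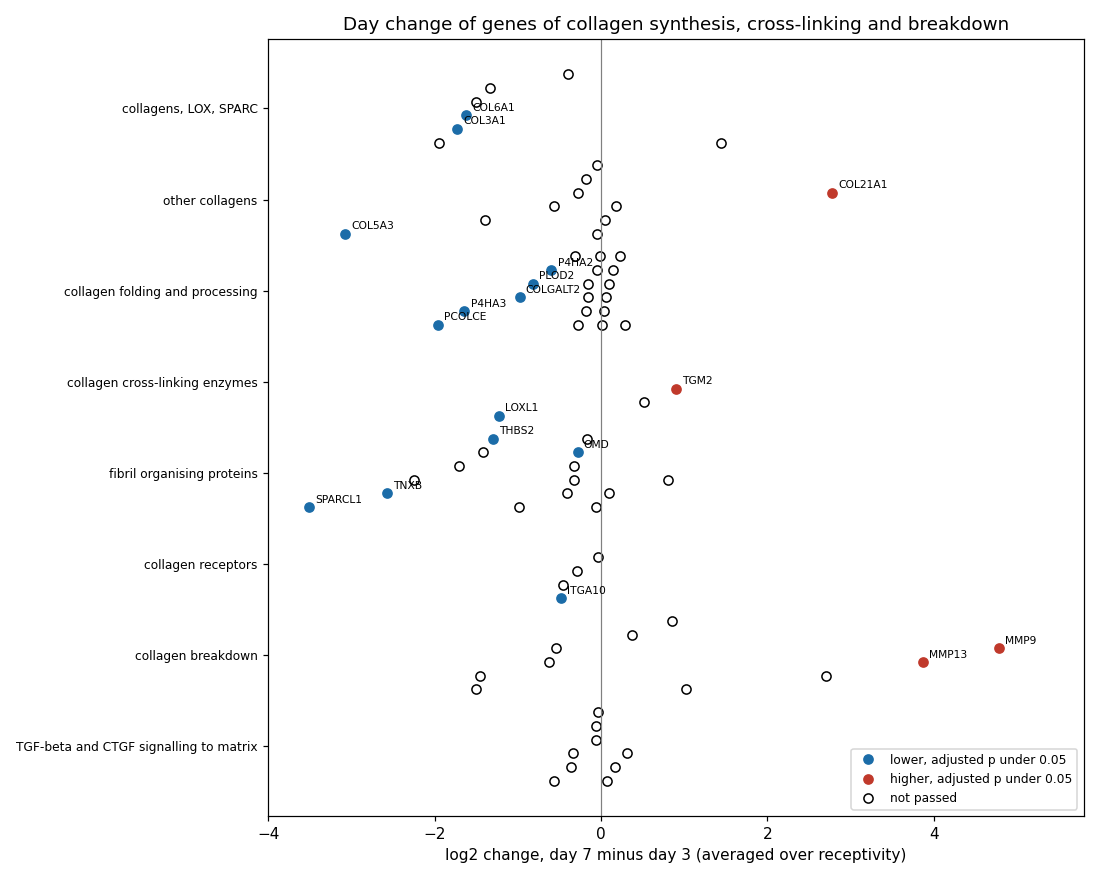
Log2 change from day 3 to day 7, averaged over receptivity (horizontal axis), of each measured gene in 8 lists (vertical axis; height within a list only separates points). Each point is 1 gene, by its brightest probe set, and named genes passed an adjusted p of 0.05. Genes of folding and fibril organisation that passed were lower, while MMP9, MMP13, COL21A1 and TGM2 were higher.

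The 8 genes whose signal most resembled the mean pattern of the 7 measured genes over the 12 pools, of 9148 genes compared, were COL13A1, DCN, MFAP2, MMP2, SPON1, FBN1, CCDC3 and TMEM119. Their Pearson's r ranged from 0.937 to 0.953 and is a description, with arrays and RNA shared. DCN, which encodes the proteoglycan decorin, was at 10.66, 11.92 and 8.02 in the non-receptive day 3 pools, with pool 3 the lowest. The 8 genes were picked for likeness over these same pools, so this low value is no separate instance of the pattern. Of the 8, only FBN1, the microfibril protein fibrillin-1, passed for the day, with a fall of 1.17 (SE 0.29, adjusted p = 0.0254).

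Markers of cell types that endometrial samples can hold were read beside these results. The shares over all probe sets tested were 9.44% lower and 4.76% higher. Of 10 stromal fibroblast markers 9 were measured, none was at 0, 3 fell and 1 rose. THY1 fell by 0.45, FBLN1 by 1.55 and PTN by 2.41, while S100A4 rose by 1.94. The summed stromal level was 12.6 to 13.2 in the non-receptive day 3 group and 12.6 to 13.0 in the receptive one, and 13.4 to 13.7 and 13.2 to 13.6 on day 7. Without S100A4, left out after its values were seen, it was 12.0 to 13.0 and 12.1 to 12.4 on day 3 and 12.2 to 12.4 and 11.6 to 12.1 on day 7. Bright genes weigh most in such a sum, here NT5E and VIM, which gave 0.41 and -0.185 and did not pass, and FBLN1. Within non-receptive day 3 this sum was lowest in pool 3, at 12.0, beside 12.7 and 13.0. Of the 7 smooth muscle markers 1 rose and 1 fell, and of 6 endothelial markers 2 fell and 0 rose. All 4 measured squamous epithelial markers rose, with sums of 7.85 to 8.59 on day 3 and 8.98 to 11.5 on day 7. Of the 8 epithelial markers 0 passed with limma by the brightest probe set of each, 2 having an unadjusted p under 0.05. Over their 9 probe sets 1 was lower and 0 were higher. The lower one was the dimmer probe set of CDH1, at -0.70 (adjusted p = 0.0255, limma), whose brightest gave -0.22 (adjusted p = 0.151). Of 7 leukocyte markers 1 rose and 2 fell, and of 4 blood markers 1 rose and 1 fell. The part of cell composition in the collagen values was not tested.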

How the data were processed

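Endometrial RNA of 12 pools was measured on 12 Affymetrix bovine arrays. The authors deposited 1 table of log2 signals, and Affymetrix Expression Console, PLIER and GCOS 1.1.1 appear in the submitters' processing notes, without role or order. How arrays were scaled to each other was not given in the sources used here, and a shift between arrays would move all genes together. Groups were taken from the sample titles and characteristics. The deposited log2 signals were used unchanged, without the 112 control probe sets. Names came from the platform annotation, in which 13292 probe sets had 1 symbol, 86 several and 10638 none, and only probe sets with 1 symbol were named. Means of the 4 groups were fitted to 24016 probe sets by lmFit and eBayes of limma 3.58.1 under R 4.3.3. The 7 contrasts were tested two-sidedly with Benjamini-Hochberg adjustment over all probe sets, and a probe set was called at an adjusted p under 0.05. The fit was tested on simulated data. A gene in a list was represented by its probe set with the highest mean signal. Marker levels are log2 of the summed linear signals.

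The genes and lists were chosen with earlier results of these data known. Named genes were the members, up to 4 genes of each other list with the smallest p among those that passed, the cross-linking enzymes and the 8 genes most like the members. Genes named outside this rule, P4HA2, TGFBR2, P4HB, SERPINH1, MMP14, TIMP1, COL6A2 and single markers, were chosen after their values were seen. Alternatives were other scalings, filters, variance models, array weights, pool number as a block, the probe set of a gene, and each pool left out.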

Additional observations from a re-analysis of the deposited data

Results flagged for a closer look

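In the 6 pools of a day, 3 of 24 sets of values held a pool far from the others, where chance gives about 1 in 20. The sets share arrays and the genes vary together, so they are not independent and an excess over chance was not tested. SPARC was at 7.07 in non-receptive day 3 pool 3, and the next pool of that day was at 9.53. COL5A2 was at 5.34 in the same pool, and the next was at 7.01. COL1A1 was at 6.10 in receptive day 7 pool 1, and the next was at 6.77.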

How the results depend on the processing

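Of the 12 probe sets, 3 were lower on day 7 averaged over receptivity. This count was 6 with a mean log2 signal of at least 5 and 6 with array weights, where fewer probe sets were tested in the first and 23.1% and 23.4% of all probe sets were called. It ranged from 0 to 7 when each pool was left out in turn, with fewer samples in each fit. Within receptive endometrium the count was 0, and 2 with a mean signal of at least 5, 1 without probe sets listed at 0, 2 with array weights, 1 with only the groups compared (6.09%, 3.15%, 5.31% and 0.154% of all probe sets called), and 0 to 3 when each pool was left out. Causes were not tested beyond this. Counts were 0 in every alternative for the day in non-receptive endometrium, for receptivity and for the difference of day changes. No gene changed direction in the averaged day change, and the LOX value of 0.09 in non-receptive endometrium became -0.08 with values under 3 raised to 3, -0.05 with array weights, and, with pool 3 of that endometrium left out, -0.30 (day 3) and -0.02 (day 7). COL3A1 passed in 14 of 21 alternatives (adjusted p 0.00494 to 0.0734), COL6A1 in 11 of 21, SPARC in 6, COL1A2 in 4, COL5A2 in 3, COL1A1 in 0 and LOX in 1 of 19. Averaged over its 3 probe sets COL6A1 gave -0.58 (adjusted p = 0.0980).

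Whether pool numbers pair the samples was not settled. Correlations of deviations between pools of the same number ranged from -0.179 to 0.136, over pairs that also cross receptivity. Between the days of receptive endometrium they were 0.136, 0.0519 and 0.122 in pools 1, 2 and 3, beside -0.149 to 0.0314 for unlike numbers. Between the days of non-receptive endometrium they were 0.0179, 0.0277 and -0.0376, beside -0.0784 to 0.0623. With pool number as a replicate block, 2 of the 12 probe sets were lower on day 7, where 12.6% of all were called, and the second COL3A1 probe set (adjusted p = 0.0545) was lost. Signals near 0, as for LOX, limit any change.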

Other observations

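COL6A1 lies next to COL6A2, another chain of type VI collagen, on chromosome 1 in the order of coding genes of the RefSeq assembly ARS-UCD2.0, and COL3A1 lies next to COL5A2 on chromosome 2. The 2 COL6A2 probe sets gave day changes of -0.05 (adjusted p = 0.717) and 0.09 (adjusted p = 0.704), and neither passed. Their signals ranged from 6.77 to 7.14 and from 4.84 to 5.68 over the 12 pools. Whether the changes of COL6A1 and COL6A2 differ was not tested.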
